A study of Mus musculus with 16 samples.

Results

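Stefins are small cystatins that stay inside the cell and block papain-like cysteine proteases, both the cathepsins of the lysosome and papain itself, the plant protease injected here as an allergen. They carry no signal peptide, and they act by wedging an inhibitory loop into the active site of the protease. In humans a single gene makes stefin A, an abundant protein of the upper epidermis, whereas in the mouse the family has multiplied into a cluster on chromosome 16. Stefins of the mouse cluster are also known from neutrophils and their precursors in the bone marrow.

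Of the 50600 gene identifiers in the count table, 7 genes of the cluster were followed in epidermal cells of the footpad: Stfa1, Stfa2, Stfa2l1, Stfa3, Gm5416, Gm5483 and BC100530. They were chosen by their place in the cluster and by measured values of these libraries, since Gm5416 was singled out for its high level after papain. The papain comparisons of all 7 genes and every comparison of Gm5416 are therefore given as a description without a test.

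The 16 libraries came from female C57/B6J mice, with 4 in each of 4 groups. From 5 wk of age and for 3 wk, the mice ate either the AhR-poor diet (labelled SYNTH), a purified diet with few ligands of the aryl hydrocarbon receptor, or the I3C diet, the same diet with 200 ppm of the AhR ligand precursor indole-3-carbinol. The footpad was then injected with 50 μl of PBS (vehicle) or with 50 μg of papain in PBS, and epidermal cells were collected after 6 hr, so all mice were injected and no group carried a transgene or deletion. Mice on the same diet shared cages, and so diet and cage cannot be told apart. Library totals ran from 22500821 to 51844375 counts, the lowest in T107 of the AhR-poor papain group. Levels are given as CPM, in which the count is divided by the TMM-scaled total of its library, and a count of 3 corresponded to between 0.0569 and 0.1298 CPM. The libraries were of keratinocyte make-up, since the 14 keratinocyte markers summed to between 53660 and 96060 CPM, led by Krt10. They also held RNA of other cells: red blood cell markers summed to at most 17.2 CPM on the I3C diet and to between 73.2 and 1254 CPM on the AhR-poor diet. In such bulk samples, fewer cells of a type and less RNA per cell cannot be told apart.

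All 7 genes lie within 298.6 kb of one another (mm10, chr16:36156811-36455392). Of the 29 genes annotated across this stretch 9 are protein coding, and the 2 that are not among the 7 are 2010005H15Rik (Csta2 in RefSeq) and BC117090 (Cstdc6). From Stfa2l1 at one end, Gm5483, Gm5416 and Stfa1 are read from the forward strand, and BC100530, Stfa2 and Stfa3 follow on the reverse strand. Gm5416 spans chr16:36210403-36217788 in 3 exons, and its annotated model holds only the 294 coding bases. Whether reads from its untranslated parts were counted is not given in the sources used here. RefSeq lists Gm5416 as Csta3, Gm5483 as Cstdc4 and BC100530 as Cstdc5.

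The coding sequences are close copies, which bears on how well their reads can be told apart. Stfa1 and BC100530 were identical at 97.96% of aligned coding bases and Stfa2 and Stfa2l1 at 96.47%, whereas Gm5416 matched BC100530 at 89.76% and Stfa1 at 89.08%. Of the windows of 100 bases, the length of 1 read, that can be cut from the Stfa1 transcripts, 5.07% occur letter for letter in another gene, BC100530. The same share was 9.49% for BC100530 (with BC117090 and Stfa1) and 2.47% for Gm5483, and no exact window of Gm5416, Stfa2, Stfa2l1 or Stfa3 was shared. The levels of Stfa1 and BC100530 are thus the least certain as single genes. BC100530 also shares 145 exonic bases with Gm15845 on the opposite strand, and the strand setting of the counting is not given in the sources used here.

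The pieces of coding sequence below (GENCODE M21, mm10) are shown because they encode the part of the protein that meets the protease. The 15 capitals encode the glutamine-x-valine-x-glycine motif of the inhibitory loop, a hallmark of cystatins, which a search in the reading frame found in each of the 7 genes.
Stfa1: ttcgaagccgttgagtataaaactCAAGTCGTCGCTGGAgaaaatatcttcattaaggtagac
BC100530: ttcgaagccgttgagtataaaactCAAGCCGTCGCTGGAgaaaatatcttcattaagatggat
Gm5416: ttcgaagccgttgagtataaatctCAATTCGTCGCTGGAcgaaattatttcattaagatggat
Stfa3: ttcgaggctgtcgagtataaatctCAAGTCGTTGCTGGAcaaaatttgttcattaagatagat
Stfa2: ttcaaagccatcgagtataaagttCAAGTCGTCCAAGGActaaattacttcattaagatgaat
Stfa2l1: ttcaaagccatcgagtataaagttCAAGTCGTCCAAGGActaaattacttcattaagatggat
Gm5483: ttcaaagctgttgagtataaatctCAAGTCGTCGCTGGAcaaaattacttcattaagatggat

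With positions counted from 1 at the first capital and Stfa1 as the reference, Gm5416 differed by G4T, BC100530 by T5C and Stfa3 by C9T. Gm5483 had the same 15 bases as Stfa1. Stfa2 and Stfa2l1 shared 3 differences from Stfa1, namely G10C, C11A and T12A.

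The promoters are also related, with pairwise identity from 70.27% to 96.42%, and are shown because the genes differed in level. Each line ends with a run of 13 bases, in capitals, that all 7 promoters hold on the transcribed strand (RefSeq, GRCm38.p6).
Gm5416: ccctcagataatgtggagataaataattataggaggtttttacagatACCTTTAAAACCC
Stfa1: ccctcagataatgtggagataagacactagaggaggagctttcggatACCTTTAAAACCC
BC100530: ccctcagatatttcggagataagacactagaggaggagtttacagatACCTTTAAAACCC
Stfa2: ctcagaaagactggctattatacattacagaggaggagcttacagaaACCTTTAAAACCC
Stfa2l1: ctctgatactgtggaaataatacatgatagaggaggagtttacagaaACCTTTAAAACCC
Stfa3: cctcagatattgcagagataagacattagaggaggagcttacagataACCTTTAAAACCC
Gm5483: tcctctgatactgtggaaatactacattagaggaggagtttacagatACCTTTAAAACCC

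In the window from 250 bases before to 50 bases after each annotated start, ACCTTTAAAACCC was found in 9 of 32544 distinct mouse promoters (0.0277%), and all 9 lie in this stretch of chromosome 16: the 7 genes, Gm7260 and Cstdc3. The run began 80 bases before the annotated start in Gm5416, between 32 and 36 bases before it in Stfa1, Stfa2, Stfa2l1, Stfa3 and Gm5483, and 12 bases before it in BC100530. Promoter identity was 96.42% between Stfa1 and BC100530 and 92.64% between Gm5416 and BC100530. It was lowest, at 70.27%, between Stfa2 and Gm5483, and Gm5483 reached at most 82.0% with any of the other genes. Motifs of inducible factors were searched on both strands of the same windows. The AhR core GCGTG was found in 1 of the 7, Stfa3, against 32.6% of all promoters. TGANTCA, bound by AP-1, was also in Stfa3 alone (7.79% of all), the STAT motif TTCNNNGAA in Gm5483 alone (8.33%), and the NF-kB motif in none (1.61%). The C/EBP motif TTGCNNAA was in Gm5416, Stfa1 and BC100530 (10.8% of all), and the E-box CANNTG in 6 of the 7 (72.3%). A match of letters is not evidence that a factor binds there.

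The levels fell into 3 patterns, which the plot of the 16 libraries shows gene by gene. Stfa1, BC100530, Stfa2 and Gm5416 were higher in every papain library than in every vehicle library of the same diet. Stfa3 was abundant in all groups and differed little. Stfa2l1 and Gm5483 were close to the detection floor in 3 groups and well above it in the papain-treated mice on the AhR-poor diet.

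**Figure D1:**
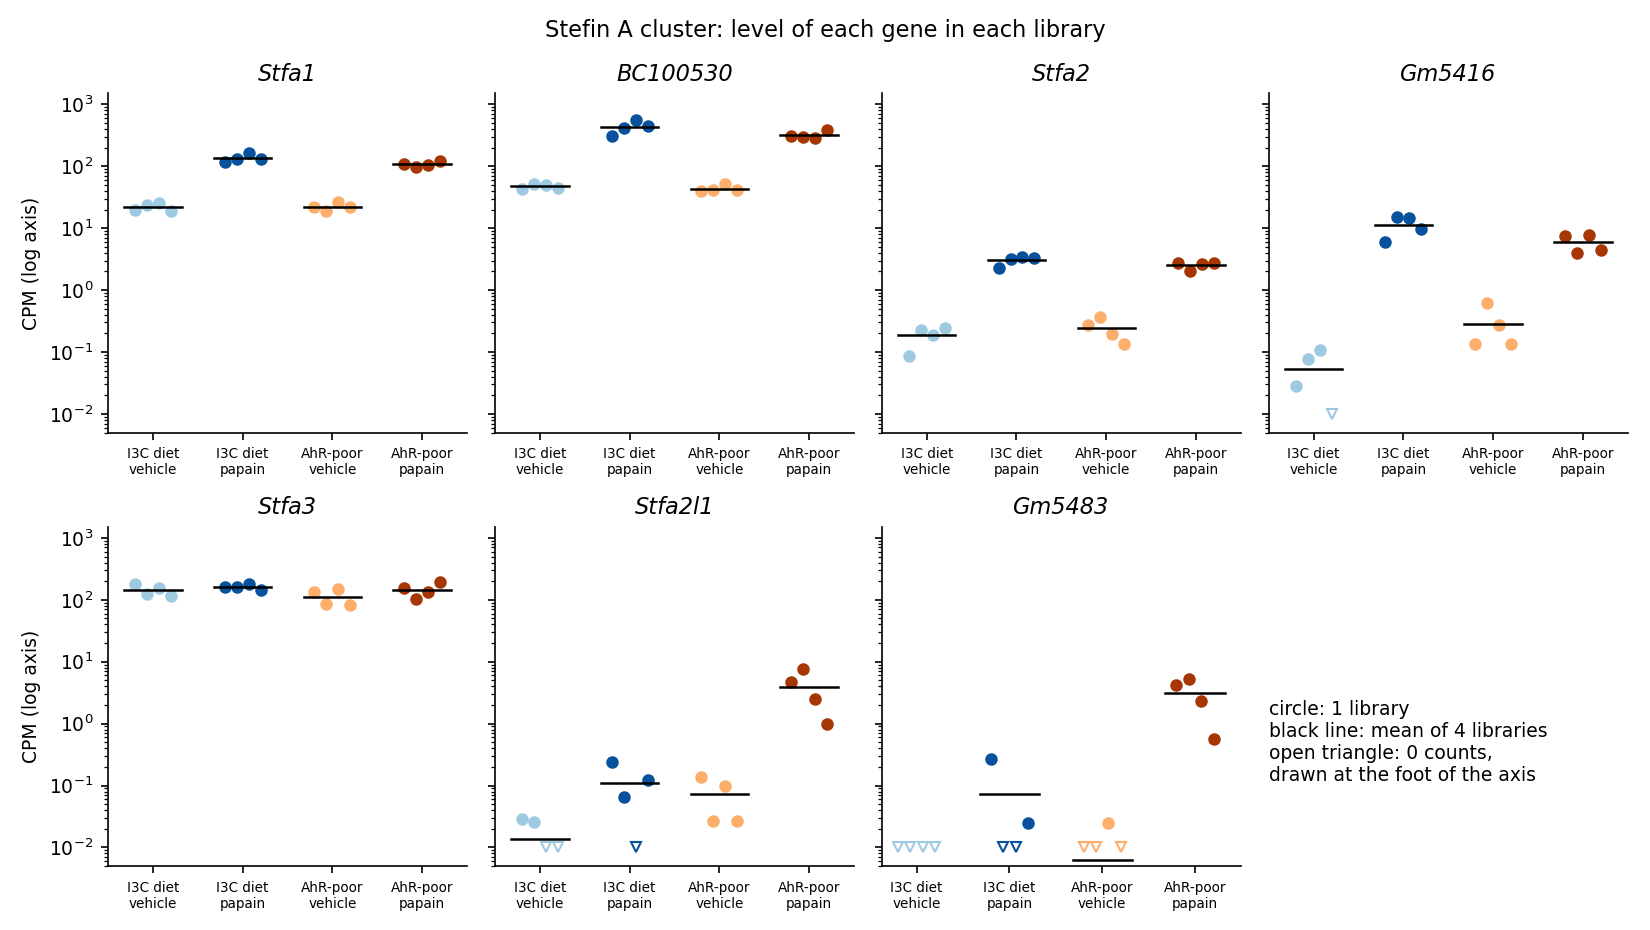
Level of each of the 7 stefin genes in each of the 16 libraries, in CPM on a log axis, by diet and injection; circles are libraries, black lines the means of 4 and open triangles libraries with 0 counts. In the first row each papain group sits above its vehicle group, Stfa3 stays between 82.8 and 193 CPM throughout, and Stfa2l1 and Gm5483 exceed 0.3 CPM only in the AhR-poor papain group.

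Gm5416 showed the largest difference between papain and vehicle on the I3C diet. With vehicle its 4 libraries on the I3C diet held 1, 3, 4 and 0 reads, and on the AhR-poor diet 5, 23, 11 and 5 reads. After papain it stood at 6.07, 15.1, 14.7 and 9.82 CPM on the I3C diet and at 7.56, 4.04, 7.75 and 4.41 CPM on the AhR-poor diet. All 8 papain libraries lay above all 8 vehicle libraries, the highest of which was T101 of the AhR-poor diet at 0.609 CPM. The log2 fold change from vehicle to papain was 7.60 ± 0.58 (SE, n = 4 and 4) on the I3C diet and 4.34 ± 0.46 on the AhR-poor diet, or 4.98 without T101. The former is imprecise at its base, since 8 reads in 4 libraries make up the whole vehicle group.

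Between the diets, the Gm5416 ranges with vehicle were barely apart, close to the floor of 3 reads. The nearest libraries were T110 of the I3C diet, with 4 reads (0.109 CPM), and T103 of the AhR-poor diet, with 5 (0.134 CPM). The share of all genes that separate in this way was not counted. With papain the groups overlapped. With vehicle the mean of 0.288 ± 0.224 CPM (SD, n = 4) in AhR-poor-fed mice exceeded that of 0.0535 ± 0.0485 CPM in I3C-fed mice. The log2 fold change of 2.31 ± 0.79 (SE) became 1.66 without T101. With papain the mean was lower on the AhR-poor diet, at 5.94 ± 1.99 CPM (SD) against 11.4 ± 4.29 CPM. That log2 fold change was -0.95 ± 0.35 (SE), and the difference between the papain responses on the AhR-poor and I3C diets was -3.26 ± 0.85 on the log2 scale, or -2.63 without T101. No test was made of these values, since the gene was selected on its papain libraries.

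Stfa1, the gene of stefin A1, was read at 19.9, 23.8, 25.3 and 18.8 CPM with vehicle and at 117.8, 130.7, 164.0 and 133.4 CPM with papain on the I3C diet. With the AhR-poor diet it stood at 22.3, 18.7, 26.4 and 21.8 CPM with vehicle and at 109.7, 98.5, 106.7 and 123.2 CPM with papain. The papain groups were far above the vehicle groups and close to each other. The means were 6.22 and 4.91 times those of vehicle, at log2 fold changes of 2.63 ± 0.126 (SE) and 2.30 ± 0.12.

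BC100530, a stefin A-like gene, was the most abundant of the 7 after papain. On the I3C diet it was at 42.7, 51.5, 50.3 and 44.6 CPM with vehicle and at 314.2, 410.5, 554.8 and 451.2 CPM with papain. AhR-poor-fed mice had values of 39.3, 41.9, 51.0 and 41.6 CPM with vehicle and of 309.3, 299.4, 285.7 and 381.5 CPM with papain. Vehicle and papain libraries were separated by a wide gap on either diet. The log2 fold changes were 3.19 ± 0.15 (SE) and 2.88 ± 0.15.

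Stfa2 had the same pattern at a far lower level, at between 0.0861 and 0.371 CPM (3 to 14 reads) in the 8 vehicle libraries. After papain it was at 2.29, 3.18, 3.45 and 3.31 CPM on the I3C diet and at 2.71, 2.07, 2.64 and 2.75 CPM on the AhR-poor diet. The log2 fold changes were 4.0 ± 0.30 (SE) and 3.36 ± 0.29, with no overlap between papain and vehicle.

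Stfa3 differed least between the groups. It was at 179.2, 123.4, 152.9 and 113.8 CPM with vehicle and 159.7, 160.1, 178.9 and 144.9 CPM with papain on the I3C diet. On the AhR-poor diet it was at 134.2, 84.5, 148.3 and 82.8 CPM with vehicle and 153.7, 101.9, 131.4 and 193.2 CPM with papain. All 4 groups overlapped. Its log2 fold changes with papain were 0.18 ± 0.22 (SE) on the I3C diet and 0.37 ± 0.22 on the AhR-poor diet.

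By count, 4 of the 7 genes were higher after papain on the I3C diet without overlap and by more than 1 on the log2 scale (Stfa1, BC100530, Stfa2 and Gm5416), where 4.52% of the 22155 genes tested met the same criteria. With the AhR-poor diet it was 6 of 7, with Stfa2l1 and Gm5483 added, against 6.87% of genes. Since the papain response entered the choice of these genes, nothing is read from the counts. Without T114 of the I3C papain group, which held no Stfa2l1 read, Stfa2l1 also met the criteria on the I3C diet, giving 5 of 7.

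**Figure D2:**
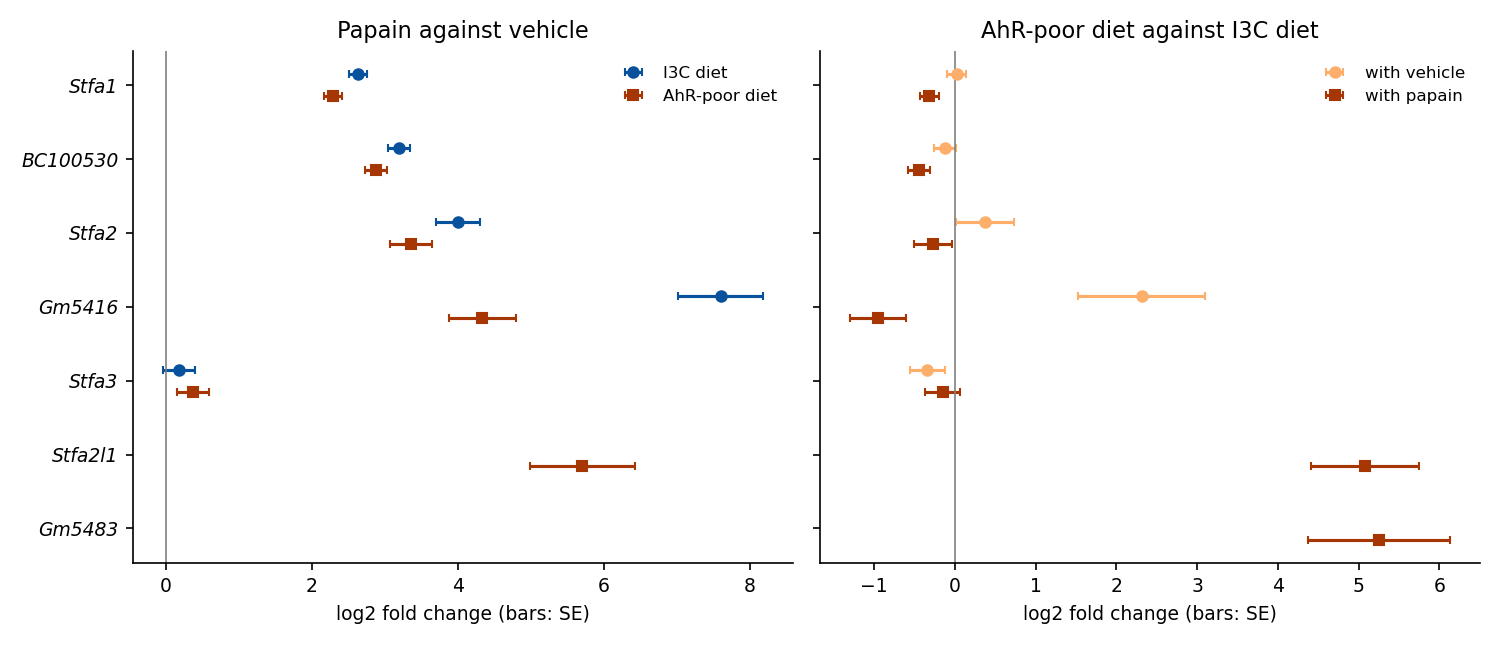
Log2 fold changes of the 7 genes from the edgeR model (points) with standard errors (bars, 4 libraries a group), for papain against vehicle on each diet (left) and for AhR-poor relative to I3C, with each injection (right). Comparisons in which a group held 3 reads or fewer are not drawn. Stfa1, BC100530, Stfa2 and Gm5416 lie right of 2 on both diets at the left, Stfa3 lies near 0 throughout, and Stfa2l1 and Gm5483 lie above 5 by diet with papain.

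The make-up of the cluster's RNA differed accordingly. Together the 7 genes took 0.0209% ± 0.00237 (SD, n = 4) of all counts with vehicle and 0.0712% ± 0.0109 with papain on the I3C diet. On the AhR-poor diet the shares were 0.0183% ± 0.00406 and 0.0608% ± 0.00843. Stfa3 supplied between 56.5% and 74.1% of the stefin counts in the vehicle libraries, but between 19.5% and 27.4% in the papain libraries. BC100530 supplied between 17.7% and 28.7% with vehicle and between 52.3% and 60.8% with papain. The leading gene of the cluster was therefore Stfa3 in all 8 vehicle libraries and BC100530 in all 8 papain libraries.

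**Figure D3:**
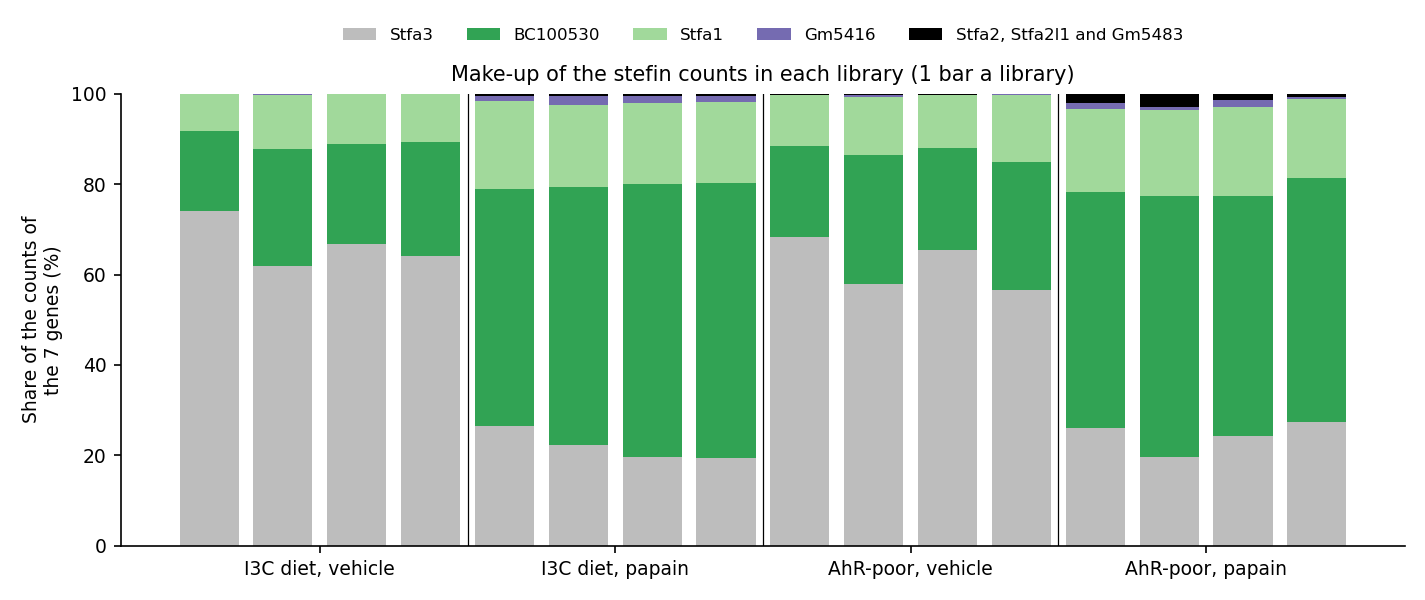
Share of the counts of the 7 stefin genes that each gene took, in percent, with 1 bar for each of the 16 libraries ordered by diet and injection. Stfa3 (grey) takes at least 56.5% in the vehicle libraries and at most 27.4% in the papain libraries, where BC100530 (dark green) takes at least 52.3%.

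Even the nearest copies differed in proportion. The ratio of BC100530 to Stfa1 counts within a library ran from 1.76 to 2.37 over the vehicle libraries and from 2.67 to 3.38 over the papain libraries. This ratio was chosen after its values were seen, and reads that the Stfa1 and BC100530 transcripts share could move it.

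Between genes, levels were compared per kb of exonic length. With vehicle on the I3C diet, Stfa3 (345 ± 72.0 CPM per kb, SD, n = 4) was followed by BC100530 (59.8 ± 5.40) and Stfa1 (30.9 ± 4.38), and the ranges of these neighbours did not overlap. Stfa2 (0.396 ± 0.149) and Gm5416 (0.182 ± 0.165) came next with overlapping ranges, then Stfa2l1 (0.0323 ± 0.0375), which overlapped with Gm5416, and Gm5483 at 0. With papain on that diet the order was BC100530 (548 ± 126 CPM per kb), Stfa3 (391 ± 33.7), Stfa1 (192 ± 27.6), Gm5416 (38.8 ± 14.6), Stfa2 (6.49 ± 1.11), Stfa2l1 (0.258 ± 0.247) and Gm5483 (0.0393 ± 0.0700). There the ranges of BC100530 and Stfa3 overlapped, as did those of Stfa2l1 and Gm5483. On the AhR-poor diet the order with vehicle was Stfa3 (273 ± 81.9 CPM per kb), BC100530 (55.0 ± 6.55), Stfa1 (31.4 ± 4.49), Gm5416 (0.979 ± 0.760), Stfa2 (0.518 ± 0.216), Stfa2l1 (0.172 ± 0.130) and Gm5483 (0.00332 ± 0.00664). The ranges of Gm5416, Stfa2 and Stfa2l1 overlapped from each to the next. With papain the order was BC100530 (404 ± 54.2 CPM per kb), Stfa3 (352 ± 93.4), Stfa1 (154 ± 14.4), Gm5416 (20.2 ± 6.76), Stfa2l1 (9.31 ± 6.74), Stfa2 (5.39 ± 0.676) and Gm5483 (1.68 ± 1.13). The values of Gm5416 rest on its coding length alone, and those of BC100530 and Stfa3, of Gm5416 and Stfa2l1, and of Stfa2l1 and Stfa2 overlapped. The place of Gm5483 rests on an annotated length of 1862 exonic bases, against 471 for Stfa2. In CPM its mean in this last group, 3.13, was above that of Stfa2, 2.54, with overlapping ranges.

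Stfa2l1 and Gm5483 were the genes of the cluster called by diet after papain. Stfa2l1, the near copy of Stfa2, was read 10, 2, 0 and 5 times on the I3C diet and 188, 395, 58 and 36 times on the AhR-poor diet, or at 4.63, 7.49, 2.51 and 0.979 CPM on the latter. Gm5483, whose coding sequence is closest to 2010005H15Rik, was read 11, 0, 0 and 1 times on the I3C diet and 174, 281, 54 and 21 times on the AhR-poor diet, or at 4.28, 5.33, 2.34 and 0.571 CPM. Every library of the AhR-poor diet was above every library of the I3C diet for both genes, with T105 highest and T112 lowest. How many of all genes tested separate by diet in this way was not counted. The log2 fold change was 5.08 ± 0.67 (SE) for Stfa2l1 (adjusted p = 5.48e-05, edgeR quasi-likelihood F test with Benjamini-Hochberg adjustment over all genes tested). It was 5.25 ± 0.88 for Gm5483 (adjusted p = 0.00116, same test). Thus 2 of the 6 genes other than Gm5416 were called higher on the AhR-poor diet (adjusted p below 0.01, log2 fold change over 1), where 7.15% of all genes tested were. None of the 6 was called lower, against 0.0993% of all genes.

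The size of these differences depended on T106, which held 10 of the 17 Stfa2l1 reads and 11 of the 12 Gm5483 reads of the I3C papain group. Without it the log2 fold changes were 5.85 for Stfa2l1 and 7.96 for Gm5483, the latter against 1 read in 3 libraries, and both were still called.

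Stfa1 and BC100530 went slightly the other way with papain, with log2 fold changes of -0.32 ± 0.12 (SE, adjusted p = 0.0627) and -0.44 ± 0.14 (adjusted p = 0.0309) in the same edgeR test. Neither passed the thresholds. The 95% intervals, on 12 residual degrees of freedom, ran from -0.57 to -0.06 for Stfa1 and from -0.74 to -0.14 for BC100530. Stfa2 (-0.27, interval from -0.77 to 0.24) and Stfa3 (-0.15, from -0.63 to 0.33) did not pass either. At an unadjusted p below 0.05, 4 of the 6 genes passed (Stfa2l1, Gm5483, Stfa1 and BC100530), where 32.0% of all genes tested did.

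With vehicle, none of the 6 genes was called between the diets by edgeR, against 1.59% of all genes tested, and none had an unadjusted p below 0.05. DESeq2 also called none. The log2 fold changes were 0.02 (95% interval from -0.24 to 0.29) for Stfa1, -0.12 (from -0.43 to 0.19) for BC100530, 0.37 (from -0.41 to 1.16) for Stfa2 and -0.34 (from -0.82 to 0.14) for Stfa3. Stfa2l1 was read 11 times on the AhR-poor and 2 times on the I3C diet over 4 libraries each, a ratio of 5.21 with a 95% counting interval from 1.14 to 48.4. Gm5483 was read 1 time and 0 times, which gives no fold.

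The interaction asks whether the papain response differed between the diets. It was not called for any of the 6 genes, by edgeR or DESeq2, where edgeR called 0.0181% of all genes tested. None of the 6 had an unadjusted p below 0.05 in edgeR. The nearest was Stfa1, whose papain response was lower on the AhR-poor diet by a log2 difference of -0.34 ± 0.17 (SE, unadjusted p = 0.0587 and adjusted p = 0.389 in edgeR). For Stfa2l1 and Gm5483 the vehicle groups hold too few reads for this test: Stfa2l1 was read 11 times and Gm5483 1 time in the AhR-poor vehicle libraries. On the AhR-poor diet alone, papain libraries held 677 Stfa2l1 reads, a log2 fold change of 5.71 ± 0.72 (SE), and 530 Gm5483 reads, a ratio of 527 to vehicle with a counting interval from 94.1 to 20840. On the I3C diet the 12 Gm5483 reads after papain, against 0 with vehicle, were at least 3.91-fold higher, with the floor of 3 reads set over the group. As 11 of the 12 were in T106, the 1 read left without it gives no fold. The Stfa2l1 reads there, 17 against 2, gave a ratio of 8.31 with a counting interval from 1.97 to 74.1. Without T106, which held 10 of the 17, it was 4.74 (7 reads in 3 libraries against 2 in 4) with an interval from 0.902 to 46.8. These intervals cover counting error only, and with the spread between libraries the 95% interval of the log2 fold change of Stfa2l1 on the I3C diet ran from -0.23 to 5.75.

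Markers of neutrophils were also highest in the AhR-poor papain libraries. The 24 neutrophil markers summed to between 238 and 1500 CPM in the AhR-poor papain libraries, against between 57.5 and 115.2 CPM in the other 12 libraries. With vehicle most of that sum was Il1r2, a decoy receptor gene of interleukin-1, at a mean of 66.7 CPM on the I3C diet. The 9 defining markers summed to 100.6, 177, 118 and 37.7 CPM in T104, T105, T107 and T112, so that T105 was highest and T112 lowest here too. In the I3C papain libraries the same sum was between 20.1 and 29.5 CPM, nearly all of it Cxcr2, a chemokine receptor gene, and Ly6g, Ngp, Camp and Elane were at 0 in all 4. With vehicle the sum was at most 0.952 CPM on the I3C diet, where Ly6g, Mmp8, Camp, Mpo and Elane were at 0, and at most 2.52 CPM on the AhR-poor diet, where Ly6g was at 0. In the AhR-poor papain group Mpo alone was at 0. The places of T105 and T112 in that group were not particular to neutrophil markers. T105 was also highest and T112 lowest in summed red blood cell markers (1254 and 266.7 CPM) and dermal fibroblast markers (1094 and 555.8 CPM).

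Csf3r, the receptor of the neutrophil growth factor G-CSF, was likewise highest in T105 and lowest in T112. It was at 55.6, 107.03, 56.8 and 11.9 CPM in the AhR-poor papain libraries and at most 0.763 CPM with vehicle. Cxcr2, another defining marker, was not called by diet with papain (log2 fold change 0.50, edgeR adjusted p = 0.143). Its means were 34.3 ± 8.70 CPM (SD) on the AhR-poor and 24.2 ± 4.25 CPM on the I3C diet. S100a8, Ly6g, Mmp9, Camp and Cxcr1 were not called in that comparison either, though each mean was higher on the AhR-poor diet. The edgeR adjusted p was 0.0223, 0.0111, 0.112, 0.0199 and 0.522 in that order. Log2 fold changes were 1.95 for S100a8, 0.98 for Mmp9 and 0.40 for Cxcr1. Ly6g and Camp had no reads in the I3C papain libraries. In the I3C papain group T106, the library with most Stfa2l1 and Gm5483 reads, had the most Csf3r, at 2.29 CPM against between 0.0285 and 0.513 CPM in the other libraries, and the most red blood cell marker RNA, at 17.2 CPM. On the I3C diet 5 of the 22 neutrophil markers tested were called higher after papain (S100a8, S100a9, Cxcr2, Mmp9 and Cxcr1, named after their values were seen) and 1 lower (Il1r2, log2 fold change -1.52), while Stfa2l1 and Gm5483 stayed at 0.268 CPM or below. Of all genes tested, 3.69% were called higher and 5.29% lower after papain on that diet. The part of neutrophil RNA in the levels of Stfa2l1 and Gm5483 was not tested.

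**Figure D4:**
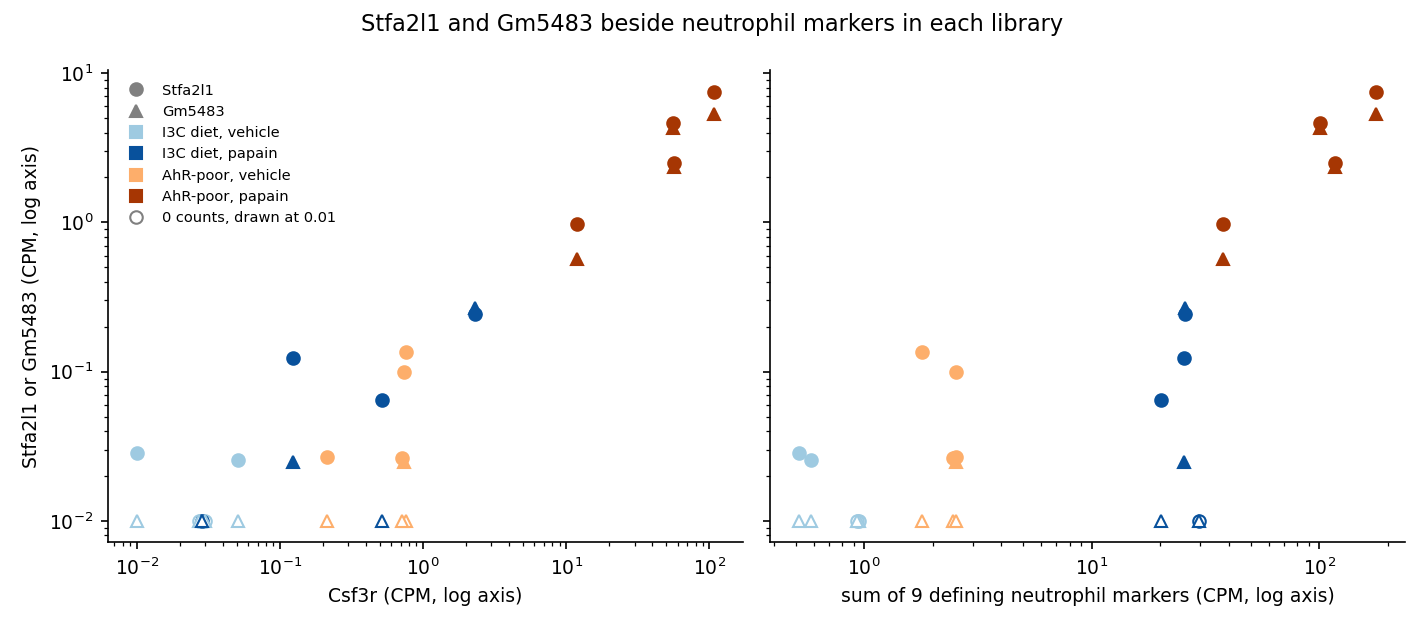
Stfa2l1 (circles) and Gm5483 (triangles) in each of the 16 libraries against Csf3r (left) and against the summed 9 defining neutrophil markers (right), all in CPM on log axes and coloured by group, with 0 counts drawn at 0.01. The AhR-poor papain libraries lie at the upper right, from 11.9 to 107.03 CPM of Csf3r, and the I3C papain libraries reach the marker sum of 20.1 to 29.5 CPM with at most 0.268 CPM of either gene.

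Marker RNA of other cells also differed with diet and papain. Of the 22 neutrophil markers tested, 16 were called higher and none lower in papain-treated mice of the AhR-poor diet than in those of the I3C diet, with 4 of 7 among the defining ones. Likewise 13 of 15 monocyte and macrophage markers, 14 of 16 dermal fibroblast markers, 6 of 7 mast cell markers, 5 of 5 red blood cell markers and 3 of 10 Langerhans cell markers were called higher and none lower. Of 14 keratinocyte markers, 1 was called higher (Krt9, named after its value was seen) and none lower. Over all genes tested, 7.15% were called higher and 0.0993% lower by diet with papain, and 1.59% in either direction with vehicle. With vehicle, 13 dermal fibroblast, 5 monocyte and macrophage, 5 red blood cell and 1 mast cell marker were called higher on the AhR-poor diet, and no neutrophil, Langerhans cell or keratinocyte marker was. The summed Langerhans cell markers with vehicle still did not overlap between the diets, with a median log2 fold change of 1.36. They were at between 901 and 1031 CPM on the AhR-poor and between 273 and 607 CPM on the I3C diet. The paper reports epidermal Langerhans cell numbers without papain, by imaging and by flow cytometry, that did not differ significantly by diet. With vehicle the sums of the 24 neutrophil markers did not overlap either. They were between 92.0 and 109.9 CPM on the AhR-poor and between 57.5 and 81.5 CPM on the I3C diet. Most of them was Il1r2, at means of 83.0 and 66.7 CPM, whose log2 fold change of 0.31 was not called. The median log2 fold change of the neutrophil markers was 3.39 over the 22 tested, although 7 of the 24 were at 0 in all I3C vehicle libraries. Dermal fibroblast markers summed to between 556 and 1094 CPM in the AhR-poor papain libraries and to between 139 and 195 CPM in the I3C papain libraries.

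The remaining genes of the stretch were read at low levels. 2010005H15Rik was called higher after papain on both diets, with 89 reads after papain against 12 with vehicle on the I3C diet, and means of 0.662 and 0.0913 CPM on the AhR-poor diet. Its log2 fold changes were 2.80 ± 0.52 (SE, edgeR adjusted p = 2.92e-04) and 2.82 ± 0.50 (adjusted p = 2.44e-04). BC117090 was called higher as well, by 1.61 ± 0.28 (adjusted p = 1.62e-04) and 1.28 ± 0.29 (adjusted p = 0.00189) in the same test. Of the windows of 100 bases of BC117090, 13.5% occur exactly in the far more abundant BC100530, and of those of 2010005H15Rik 5.61% occur in Gm5483, so that both are uncertain as single genes. Csta1, the next cystatin gene beyond Stfa2l1, was called on the I3C diet, at 48.8 ± 19.7 CPM (SD) with papain against 22.0 ± 3.33 CPM with vehicle (log2 fold change 1.15, edgeR adjusted p = 0.00183). On the AhR-poor diet its log2 fold change of 0.45 was not called (adjusted p = 0.182, edgeR), and its interaction was not called (adjusted p = 0.392). The antisense gene Gm15845 held 917 reads over the 16 libraries, and the pseudogenes Gm10913 and Gm7260 held 26 and 19.

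Among the other cystatins, only Csta1 and Csta2 were called after papain, and both are described above. Of 9 listed, 6 had enough reads to test, and Cst9, Cst10 and Cst12 did not. On the I3C diet 2 of 6 were called higher after papain (Csta1 and Csta2, here 2010005H15Rik) and on the AhR-poor diet 1 of 6 (Csta2), and none was lower. Among all genes tested, 3.69% were called higher and 5.29% lower with I3C, and 6.04% and 2.42% with the AhR-poor diet. The median log2 fold change was 0.48 and 0.45, against -0.04 and -0.00 over all genes. Cstb, the gene of stefin B, was at 132 CPM with vehicle and 175 CPM with papain on the I3C diet, and its log2 fold change of 0.41 was below the limit. Cst3, the gene of the secreted cystatin C, stayed between group means of 421 and 459 CPM. Cst6, the gene of cystatin E/M of the upper epidermis, had group means between 218 and 347 CPM, and Cst7, the gene of cystatin F of immune cells, between 0.510 and 2.05 CPM. None of the 6 was called by diet.

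Cathepsins, the proteases that stefins hold in check, were called in part. Of 10 tested, 4 were higher after papain on the AhR-poor diet (Ctsb, Ctsk, Ctss and Ctsz), 2 on the I3C diet (Ctsb and Ctsz), and none was lower. The median log2 fold changes were 0.60 and -0.09. Over all genes tested, 6.04% were called higher and 2.42% lower after papain on the AhR-poor diet, and 3.69% and 5.29% on the I3C diet. Ctsb, the gene of the lysosomal protease cathepsin B, was at 289 ± 20.5 CPM (SD) with vehicle and 706 ± 95.9 CPM with papain on the I3C diet, and at 275 ± 21.1 and 631 ± 20.9 CPM on the AhR-poor diet. By diet, Ctsk and Ctsz were called higher on the AhR-poor diet with vehicle, and Ctsk, Ctss and Ctsz with papain. The shares over all genes tested were 1.59% in either direction with vehicle and 7.15% higher with papain. Ctss, the gene of cathepsin S of antigen-presenting cells, stood at 38.3 ± 16.6 CPM on the AhR-poor and 5.69 ± 2.73 CPM on the I3C diet with papain (log2 fold change 2.75 ± 0.39, edgeR adjusted p = 2.12e-04). Ctsk, the gene of the collagen-degrading cathepsin K, stood at 6.27 ± 2.70 and 0.180 ± 0.101 CPM, and Ctsz at 32.0 ± 9.10 and 9.77 ± 2.59 CPM. Group means of Ctsc, Ctsf, Ctsh, Ctsl, Ctso and Ctsw, which were not called in any of these comparisons, were between 2.27 and 101.6 CPM. These differences by diet moved with the marker lists of fibroblasts and myeloid cells given above, and the part of those cells was not tested.

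Of 17 other protease inhibitors of epidermis that could be tested, 5 were called higher after papain on each diet and none lower. They were the same genes, named after their values were seen: Slpi, Wfdc12, Serpinb1a, Serpinb3c and Timp1. The median log2 fold change was 0.62 on the I3C diet and 0.36 on the AhR-poor diet. Of all genes tested, 3.69% were called higher on the I3C diet and 6.04% on the AhR-poor diet. Slpi, the gene of the secretory leukocyte protease inhibitor, was at 4.80 ± 1.43 CPM (SD) with vehicle and 110 ± 67.1 CPM with papain on the I3C diet. Timp1, an inhibitor of metalloproteinases, was the one gene of this list called between diets with papain, at 43.1 ± 17.5 CPM on the AhR-poor and 1.60 ± 0.390 CPM on the I3C diet. The most abundant inhibitors, Serpinb5, Serpinb2, Spink5 and Serpinb3b, were not called.

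Stefin A is also a constituent of the cornified envelope, the protein shell of the outermost keratinocytes. Of 33 cornified envelope genes tested, 15 were called higher and 1 lower (Tgm3) after papain on the I3C diet, and as many on the AhR-poor diet. Their median log2 fold change was 1.31 and 0.84, and none was called by diet. For comparison, 3.69% of all genes tested were called higher after papain on the I3C diet and 6.04% on the AhR-poor diet. Sprr1a, a small proline-rich envelope protein gene, went from 155 to 667 CPM on the I3C diet and from 168 to 624 CPM on the AhR-poor diet. Evpl and Ppl, which encode the scaffold proteins envoplakin and periplakin, were not called.

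Genes outside the cluster with the most similar profiles were found by the root mean square difference of centred log2 CPM over the 16 libraries, among 13026 genes with a mean of at least 1 CPM. For Stfa1 they were Syt12 (0.18), Slc25a48 (0.21) and Lgmn (0.24), the last of which encodes legumain, another lysosomal cysteine protease. For BC100530 they were Dnmt3l (0.18), Samhd1 (0.19) and Cyp7b1 (0.24). Stfa2 was nearest to Sdc3 (0.33), Rab31 (0.36) and Serpinb1a (0.38), and Gm5416 less closely to Gjb1 (0.67), Antxrl (0.74) and Defb14 (0.78). For Stfa2l1 they were Ankrd33b (0.37), Srgn (0.56), a proteoglycan gene of blood cell granules, and Ms4a4a (0.56). Stfa3 was nearest to Fam162a (0.20), Tchh (0.21) and Cxadr (0.23), although its own profile varied by only 0.35 on this scale, so that any steady gene would be near it. Gm5483 had a mean below 1 CPM and was not ranked. Within the cluster, Stfa1 and BC100530 were nearest (0.31), then Stfa2 and BC100530 (0.42), and Stfa2 and Stfa2l1, despite their near-identical coding sequences, were 1.96 apart. These values describe likeness across libraries that share their groups, and no test was made.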

How the data were processed

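The authors made stranded mRNA libraries (TruSeq), aligned paired reads with STAR to mm10 and deposited raw counts of reads per gene; the counting tool, annotation release and strand setting are not given in the sources used here. Groups were taken from the labels. GENCODE M21 gave a symbol for 50376 of the 50600 identifiers. The 7 genes and all gene lists (other cystatins, cathepsins, other protease inhibitors, cornified envelope genes, and markers of neutrophils, monocytes and macrophages, Langerhans cells, keratinocytes, dermal fibroblasts, mast cells and red blood cells) were chosen with earlier results of these data known.

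The 22155 genes that reached 10 counts over all libraries were fitted in edgeR 4.0.16 (R 4.3.3) with TMM factors, 1 mean for each of the 4 groups and no covariate, and compared with the robust quasi-likelihood F test, Benjamini-Hochberg adjusted over all genes tested. A call needed an adjusted p below 0.01 together with a log2 fold change beyond 1 in either direction. SE is the log2 fold change divided by the root of F. Where a group of 4 libraries held 1 to 3 reads, the ratio of counts with an exact interval is given, and where it held 0 a bound against 3 reads. Such intervals and floors cover counting error only. Named genes were the 7, all others annotated between them, the listed cystatins and cathepsins, the 3 nearest profiles of each, and at most 4 of the most abundant genes of each other list. Like profiles used log2 CPM with a prior count of 2. The script was tested on simulated data. The alternatives tried were no factors, RLE factors, filterByExpr, all genes with a count, DESeq2 1.42.0, other thresholds, only the 8 libraries compared, the ratio of mean CPM, and leaving out each library. No library pair of a group agreed within sampling noise (lowest chi-square per degree of freedom 9.43). Each library has its own code in the labels, which do not themselves say whether codes are separate mice. The study calls the libraries biological replicates and names the single mouse as the experimental unit of its animal work. P-values measure the spread between these libraries. Cage and sequencing unit are not given for each, and no model used them.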

Additional observations from a re-analysis of the deposited data

Results flagged for a closer look

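Within groups of 4 libraries, 28 sets of values (7 genes in 4 groups) were examined for a single library far from the others, and 3 were found. For values with a normal spread chance alone gives about 1 in 20, but that rate does not hold for sets of few reads. Any set with 1 read against 0 in the others is flagged. Gm5483 with vehicle on the I3C diet, at 0 in every library, could not be flagged. Stfa2 was at 2.07 CPM in T105 of the AhR-poor papain group, against between 2.64 and 2.75 CPM in the other 3 libraries. Gm5483 was at 0.268 CPM in T106 of the I3C papain group, where 11 reads stood against 0 to 1 in the others. Gm5483 was at 0.0247 CPM in T102 of the AhR-poor vehicle group, a single read against 0, which is below the floor of 3 reads.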

How the results depend on the processing

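Of the 5 counts of stefin genes, none moved by over 1.5 times under 93 alternatives in all. A count of 0 has no such ratio. For the diet comparisons the alternatives include leaving out libraries of the other injection, which are not themselves compared. The count was 0 of 6 by diet with vehicle and for the interaction, 2 of 6 by diet with papain (Stfa2l1 and Gm5483 each time) and 6 of 7 with papain on the AhR-poor diet under every alternative, and from 4 to 5 of 7 with papain on the I3C diet. Among 523 values of single genes, the difference of Stfa1 between diets with vehicle, 0.02 on the log2 scale, changed sign when T108, T111 or T102 was left out. Its range over the omissions of 1 library was -0.0797 to 0.0921, with no call. The papain response of Gm5416 on the AhR-poor diet moved to 4.98 without T101. Adjusted p-values by diet with papain ran from 6.07e-08 to 0.00397 for Stfa2l1 and from 3.53e-05 to 0.00839 for Gm5483. For BC100530 they ran from 0.00200, without T106, to 0.127, without T114, always with a fold change below the limit. No paired analysis was possible because the groups share no replicate code. Few reads limit Stfa2l1 (at most 10 a library) and Gm5483 (at most 11) outside the AhR-poor papain group, and Gm5416 with vehicle (0 to 23). Reads that match several stefin genes were handled in a way that is not given in the sources used here.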
